A study of Mus musculus with 6 samples.

Results

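In all, 10 genes of the Notch pathway were followed from normal mammary epithelial cells to tumor cell lines without JNK. They are the receptors *Notch1*, *Notch2*, *Notch3* and *Notch4*, the ligands *Jag1*, *Jag2* and *Dll1*, and the target genes *Hes1*, *Hey1* and *Heyl*. They were chosen by name, and each was found among the 37753 entries of the expression table that hold values, as 10 entries. The table gives each gene in FPKM, fragments scaled to transcript length and to the mapped fragments of the library, a unit that allows levels of different genes to be set side by side. Primary mammary epithelial cells (MEC) of genotype WAPCre+ gave 3 libraries, each pooling cells of 3 to 5 virgin females (10 to 12 weeks old), cultured on collagen I. Breast tumor cell lines of genotype Mapk8KO Mapk9KO Cre+ (MEKO) gave 3 libraries, from the lines numbered 199, 233 and 336, which spent 2 passages on collagen I before transfer to regular dishes. All mice were C57/Bl6J, and both groups carry Cre under the *Wap* promoter, which is active in luminal cells and, by the paper, induced by lactation. The age of the tumor-bearing mice is not given in the labels. The paper bred its tumor cohorts at 10 to 12 weeks and followed them after weaning, while the MEC donors were virgin. Each line stands for 1 tumor. Genotype, age, parity, tumor origin and culture history change together, so their parts in any difference cannot be told apart.

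Notch receptors are cut by furin on their way to the cell surface and wait there for a ligand of the Jagged or Delta-like family on a neighboring cell. Ligand binding exposes the receptor to ADAM10 and then to gamma-secretase, and the freed intracellular domain enters the nucleus. There it joins RBPJ and Mastermind proteins to switch on target genes, among them the *Hes* and *Hey* genes, which encode transcriptional repressors. In the mammary gland the pathway is known for guiding luminal cell fate, and *Notch4* and *Hey1* are also known from blood vessels.

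The sequences upstream of 3 members are shown because these members are the receptor that was called lower, the ligand with the lowest share of its MEC level in lines 233 and 336, and a ligand with a higher share of the ligand pool in each line. They are read 5′ to 3′ on the gene's own strand from the RefSeq promoter windows of GRCm38.p6, which matched 7 of the 10 members. Capitals mark the AP1 motif TGANTCA, the site of the JUN and FOS factors that JNK signaling acts on. The *Notch4* stretch is chr17:34564045-34564297 on the plus strand, the *Jag1* stretch is chr2:137116645-137116770 on the minus strand, and the *Dll1* stretch is chr17:15376933-15377182 on the minus strand, before the second of 2 start sites. The *Notch4* stretch runs past the start of the GENCODE gene into its first exon, so as to hold the whole motif, and the *Jag1* stretch stops where the GENCODE gene begins, short of the RefSeq start.
Notch4: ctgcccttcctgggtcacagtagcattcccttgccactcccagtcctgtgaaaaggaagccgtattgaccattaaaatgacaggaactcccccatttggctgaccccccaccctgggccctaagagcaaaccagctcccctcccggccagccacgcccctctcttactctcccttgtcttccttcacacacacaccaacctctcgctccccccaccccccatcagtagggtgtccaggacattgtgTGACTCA
Jag1: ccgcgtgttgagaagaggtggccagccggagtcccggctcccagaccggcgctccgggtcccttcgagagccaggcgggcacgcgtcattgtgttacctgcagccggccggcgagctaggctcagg
Dll1: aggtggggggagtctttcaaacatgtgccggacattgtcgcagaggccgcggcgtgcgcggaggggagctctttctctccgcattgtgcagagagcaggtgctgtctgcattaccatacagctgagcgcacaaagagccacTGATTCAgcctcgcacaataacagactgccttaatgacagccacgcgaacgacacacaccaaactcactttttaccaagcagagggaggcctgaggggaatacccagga
In *Notch4* the AP1 motif begins 4 bases before the RefSeq start (-4), and in *Dll1* it begins at -109. Counting 250 bases before and 50 after the start, AP1 was found in no window of the other matched members, and it lies in 7.81% of all 32851 promoter windows. This motif was added after the expression values were seen. The RBPJ core TGGGAA was in no window of the 7 matched members and the E box CACGTG in none, against 25.6% and 7.15% of all windows. Only the receptors and ligands had windows, so no promoter of the targets *Hes1*, *Hey1* or *Heyl* was searched. The N box CACNAG, a site of HES repressors, lies in 42.5% of windows, and among the members in those of *Notch1*, *Notch2*, *Notch3* and the second *Dll1* window. Both strands were read, and a match or its absence in these windows says nothing of binding.

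The deleted genes and the cell type markers set the frame for the values that follow. Relative to the MEC mean, *Mapk8*, which encodes JNK1, kept 26.4%, 13.9% and 6.09% in lines 199, 233 and 336, and *Mapk9*, which encodes JNK2, kept 33.6%, 13.9% and 13.5%. The paper reports from immunoblots that tumor cells of this genotype lack JNK proteins, and the RNA values here do not measure protein. Summed over 12 luminal markers led by *Krt18*, *Krt8* and *Krt19*, expression was 5408 to 8965 FPKM in MEC and 792 to 1970 FPKM in MEKO, and 9 of the 11 tested markers were called lower. The 9 basal and myoepithelial markers, led by *Acta2*, *Krt14* and *Krt17*, summed to 1570 to 2865 FPKM in MEC and to 2277 FPKM in line 199, but to only 10.8 and 58.7 FPKM in lines 233 and 336. Keratins and *Acta2* carried the sum of line 199, and 3 of these markers were called lower, *Myh11*, *Mylk* and *Oxtr*. These 3 were at 0.0812, 0.714 and 0.0126 FPKM in line 199 against at least 22.4, 7.96 and 5.05 FPKM in MEC. *Trp63* was above each MEC value in line 199 (15.65 against 7.94 to 11.3 FPKM), and *Cnn1* was below each (16.8 against at least 47.6 FPKM). Line 199 also stood apart in the 8 fibroblast markers, led by *Col1a1*, *Col1a2* and *Col3a1*, with 1111 FPKM against 118 to 207 FPKM in MEC and 2.43 and 4.23 FPKM in the other lines. The collagens carried this sum, while *Dcn* (0.311 FPKM, called lower), *Lum* (0.0264 FPKM) and *Thy1* (11.1 FPKM) were below each MEC value in line 199. *Pdgfrb* (19.0 FPKM) and *Pdgfra* (1.305 FPKM) were above each MEC value in that line. Marker names beyond the leading ones of each list were chosen after their values were seen. The 7 squamous markers, led by *Krt6a*, also summed highest in line 199, to 242.5 FPKM. The sum was 10.1 to 52.6 FPKM in MEC and 3.97 and 14.9 FPKM in the other lines. *Krt6a* alone was 222.5 FPKM in line 199, and *Krt10*, *Krt13*, *Sprr1b* and *Lor*, at 0.676 to 16.5 FPKM, were also above each MEC value. In lines 233 and 336, *Krt13* (0.234 and 0.104 FPKM) and *Lor* (1.71 and 1.17 FPKM) were above each MEC value too. *Sprr1b* was so in line 336 (1.47 FPKM), and *Lor* was lower in line 199 than in the other lines. *Ivl* went the other way, at 0.708 FPKM in line 199 against 3.365 to 12.8 FPKM in MEC. It was the 1 squamous marker called, as lower. Fold changes whose call or sign turns on line 199 are therefore also given without it. In bulk RNA, fewer cells of a type and less RNA per cell cannot be told apart.

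Of the 10 Notch genes, *Notch4*, *Hey1* and *Heyl* were called lower in MEKO and none was called higher. A call needed an adjusted p under 0.05 and a log2 fold change beyond 0.75 in limma's test on log2(FPKM + 1), the scale of all fold changes here. Among 12461 tested entries, 9.9% were called, 7.26% as lower and 2.64% as higher in MEKO. The 3 called members had a mean under 1 FPKM in MEKO and passed the filter at a mean of 1 FPKM only through MEC, so their count is a description of these genes and not of the pathway. In 7 members, these 3 with *Notch1*, *Notch3*, *Jag1* and *Hes1*, each MEKO value lay below each MEC value, a pattern seen in 18.7% of tested entries. As a description, the median log2 fold change was -1.03 over the 10 members, -0.70 over the 7 members with a mean of at least 1 FPKM in MEKO, and 0.01 over all tested entries. The number of called members was 1 without MEC 1, 1 without MEC 2 and 5 without line 199, when *Jag1* and *Hes1* joined the list.

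**Figure D1:**
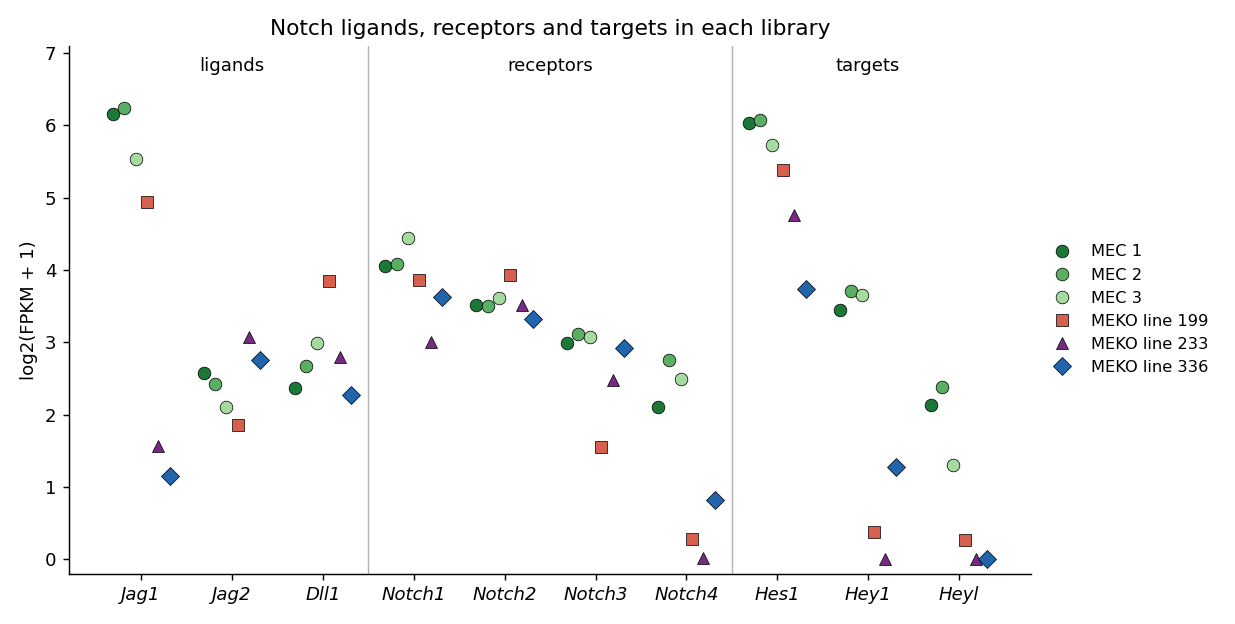
Expression of the 10 Notch genes as log2(FPKM + 1) in each library, with ligands, receptors and targets in separate fields. Circles are the 3 MEC libraries, and the square, triangle and diamond are MEKO lines 199, 233 and 336. The MEKO values of *Notch4*, *Hey1* and *Heyl* lie near 0, and *Jag1* in line 199 lies between MEC and the other lines.

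*Jag1*, a Jagged ligand, was the most abundant Notch ligand of MEC and lay at 3.09% or less of the MEC mean in 2 of the 3 tumor lines. The gene (chromosome 2 of GRCm38, 137081456 to 137116644) stood at 70.5, 74.5 and 45.3 FPKM in MEC 1, 2 and 3. In MEKO it stood at 29.6 FPKM in line 199, 1.96 FPKM in line 233 and 1.22 FPKM in line 336. The groups did not overlap, and the lines differed widely, since line 199 kept 46.7% of the MEC mean while lines 233 and 336 kept 3.09% and 1.93%, or 32.4-fold and 51.9-fold less than the MEC mean. The log2 fold change was -3.43 (95% confidence interval -5.77 to -1.09), and the gene was not called (limma, adjusted p = 0.0763). Without line 199 it was -4.62 and called, with an adjusted p of 0.00116, the lowest of a range up to 0.213 over 12 alternatives. The basal and myoepithelial list summed to 2277 FPKM in line 199, within the MEC range, where *Jag1* was below each MEC value, and to 10.8 and 58.7 FPKM in lines 233 and 336, where *Jag1* was lowest. Line 199 also had the high fibroblast sum, and the part of either cell type in the *Jag1* values was not tested.

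The other ligands had values that overlapped between the groups. *Jag2*, the second Jagged ligand (chromosome 12, 112907819 to 112929776), was 4.97, 4.37 and 3.28 FPKM in MEC and 2.62, 7.38 and 5.78 FPKM in lines 199, 233 and 336. Its groups overlapped, with lines 233 and 336 above each MEC value and line 199 below, and the log2 difference was 0.19 (95% confidence interval -0.64 to 1.03, limma, adjusted p = 0.744). *Dll1*, a Delta-like ligand (chromosome 17, 15367354 to 15376872), was 4.18, 5.36 and 6.96 FPKM in MEC and 13.4, 5.93 and 3.82 FPKM in the lines. Line 199 had the highest *Dll1* value and line 336 the lowest, so the groups overlapped, with a log2 difference of 0.29 (95% confidence interval -0.72 to 1.31, limma, adjusted p = 0.680). Without line 199 the sign of the *Dll1* difference turned, to -0.15. An RNA gene on the opposite strand, *A930024N18Rik*, shares 20.5% of the exon bases of *Dll1*, and whether strand was used in the quantification is not given in the sources used here.

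The 3 ligand genes together summed to less in each line than in MEC, and line 199 differed from the other lines in their mixture. Their summed FPKM was 79.7, 84.2 and 55.5 in MEC and 45.7, 15.3 and 10.8 in lines 199, 233 and 336. *Jag1* made up 88.5%, 88.4% and 81.6% of the sum in MEC, 64.8% in line 199, and 12.8% and 11.3% in lines 233 and 336. *Dll1* made up 5.25%, 6.36% and 12.5% in MEC and 29.4%, 38.9% and 35.3% in the lines. The groups did not overlap for these 2 shares, and each gave p = 0.1 in an exact permutation test (two-sided), the smallest that 3 libraries against 3 allow, or 0.175 after Benjamini-Hochberg adjustment over the 7 ligand and receptor shares. *Jag2* made up 5.19% to 6.24% in MEC and 5.74% in line 199, but 48.3% and 53.4% in lines 233 and 336 (exact permutation test, two-sided, p = 0.3). *Jag1* remained the main ligand transcript in line 199 alone among the lines, and *Jag2* was the main one in lines 233 and 336.

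**Figure D2:**
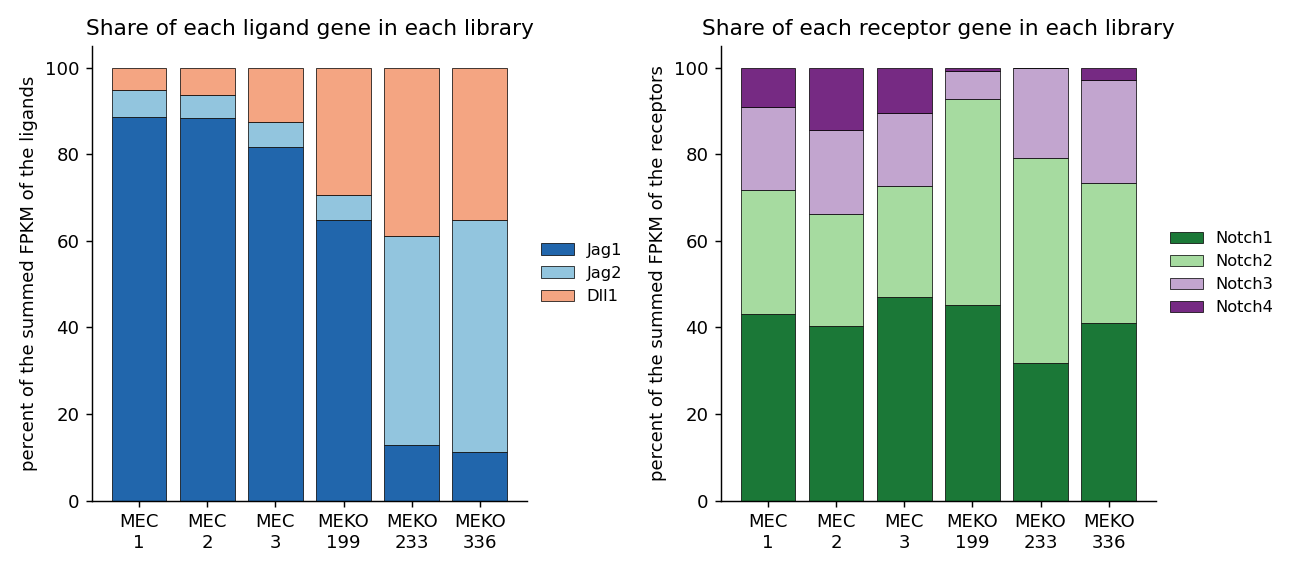
Share of each gene in the summed FPKM of the 3 ligand genes (left) and the 4 receptor genes (right), as stacked bars in percent for each of the 6 libraries. *Jag1* fills over 80% of the ligand bar in each MEC library and 11.3% to 64.8% in the lines, and *Notch4* nearly vanishes from the receptor bar in the lines.

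Among the receptors, *Notch4* fell in every tumor line, while the 95% interval for the log2 difference of *Notch2* reached from -0.44 to 0.51. *Notch4* (chromosome 17, 34564268 to 34588503) was 3.30, 5.76 and 4.65 FPKM in MEC and 0.210, 0.0110 and 0.769 FPKM in lines 199, 233 and 336. The groups lay well apart, with line 336 keeping 16.8% of the MEC mean, line 199 4.59% and line 233 0.240%. The log2 fold change was -2.08 with a standard error of 0.31 (95% confidence interval -2.83 to -1.34, limma, adjusted p = 0.0129). The call was lost when any 1 MEC library was left out, with adjusted p values of 0.0534 without MEC 1, 0.0699 without MEC 2 and 0.0580 without MEC 3. Over the 11 alternatives the adjusted p ranged from 0.00850 to 0.0699. With a pseudocount of 0.1 in place of 1, the log2 fold change was -3.88.

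*Notch1*, the most abundant receptor of MEC (chromosome 2, 26457903 to 26516663), was 15.6, 16.0 and 20.8 FPKM in MEC and 13.5, 7.02 and 11.3 FPKM in lines 199, 233 and 336. Each line lay below each MEC library, with line 199 close to them, and the log2 difference of -0.70 (95% confidence interval -1.33 to -0.08) was not called (limma, adjusted p = 0.142). *Notch3*, a receptor known from smooth muscle and luminal progenitors (chromosome 17, 32120820 to 32166852), was 6.94, 7.66 and 7.40 FPKM in MEC and 1.94, 4.57 and 6.58 FPKM in the lines. Here line 199 was the lowest and line 336 almost reached MEC, and the log2 difference of -0.74 (95% confidence interval -1.59 to 0.11) was not called (limma, adjusted p = 0.228). *Notch2* (chromosome 3, 98013527 to 98150361) was 10.5, 10.4 and 11.3 FPKM in MEC and 14.2, 10.4 and 8.96 FPKM in the lines. Its groups overlapped, and the log2 difference was 0.04 (95% confidence interval -0.44 to 0.51, limma, adjusted p = 0.924). Transcripts annotated on the opposite strand share up to 7.50% of the exon bases of *Notch1* and 6.03% of those of *Notch3*.

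The summed FPKM of the 4 receptors was 36.4, 39.8 and 44.1 in MEC and 29.9, 22.0 and 27.6 in lines 199, 233 and 336 (exact permutation test, two-sided, p = 0.1). *Notch1* held 43.5% ± 3.44 of that sum in MEC and 39.4% ± 6.81 in MEKO (SD, n = 3; exact permutation test, p = 0.5). *Notch2* held 26.8% ± 1.77 in MEC and 42.4% ± 8.67 in MEKO, and its 3 MEKO shares of 47.6%, 47.3% and 32.4% lay above each MEC share (exact permutation test, p = 0.1, adjusted 0.175). *Notch4* went the other way, from 9.08%, 14.5% and 10.5% to 0.701%, 0.0499% and 2.78%. Thus *Notch1* led the receptor transcripts in each MEC library and in line 336, and *Notch2* led in lines 199 and 233. Shares of 1 sum are tied to each other, and the higher *Notch2* share came with a log2 difference in level of 0.04.

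Of the target genes, *Hey1* and *Heyl* were near or at 0 in lines 199 and 233, while *Hes1* was not. *Hey1* (chromosome 3, 8663359 to 8667256) was 9.92, 12.1 and 11.5 FPKM in MEC, and it was 0.298 FPKM in line 199, listed at 0 in line 233 and 1.42 FPKM in line 336. The 3 MEC libraries lay close together and far above each line, and line 336 with the highest value kept 12.7% of the MEC mean. The log2 fold change was -3.05 with a standard error of 0.35 (95% confidence interval -3.89 to -2.22, limma, adjusted p = 0.00510). *Hey1* was called under each of the 12 alternatives, with adjusted p from 0.00376 to 0.0393, and its log2 fold change was -4.84 with a pseudocount of 0.1. The 5 other tested coding genes within 1 Mb of *Hey1* had median log2 differences from the MEC mean of -0.94, -1.13 and -0.50 in lines 199, 233 and 336, against -0.01, -0.09 and -0.31 for chromosome 3. The part of this neighborhood in the *Hey1* values was not tested.

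*Heyl*, a relative of *Hey1* that is a target of NOTCH3 in smooth muscle (chromosome 4, 123233556 to 123249875), was 3.38, 4.22 and 1.47 FPKM in MEC. It was 0.203 FPKM in line 199 and listed at 0 in lines 233 and 336. Each MEC library lay above each line, MEC 3 by the least, and the log2 fold change was -1.85 with a standard error of 0.34 (95% confidence interval -2.67 to -1.03, limma, adjusted p = 0.0238). The call was lost without MEC 1, MEC 2, line 233 or line 336, with adjusted p of 0.120, 0.103, 0.0566 and 0.0561, in a range of 0.0171 to 0.120 over 11 alternatives. With a pseudocount of 0.1 its log2 fold change was -4.31.

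*Hes1*, the most widely expressed Notch target and one that other signals also feed (chromosome 16, 30064384 to 30067796), was 64.4, 66.5 and 52.1 FPKM in MEC and 40.6, 26.0 and 12.3 FPKM in lines 199, 233 and 336. The lines were spread over a wide range but all lay below MEC, at 66.5%, 42.7% and 20.2% of the MEC mean. The log2 fold change of -1.32 (95% confidence interval -2.30 to -0.34) was not called (limma, adjusted p = 0.0947). Without line 199 it was -1.70 and called, with an adjusted p of 0.0230, the lowest of a range up to 0.251 over 12 alternatives. *Hes1* had the highest mean of the 10 genes in MEKO, at 26.3 ± 14.1 FPKM (SD, n = 3).

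**Figure D3:**
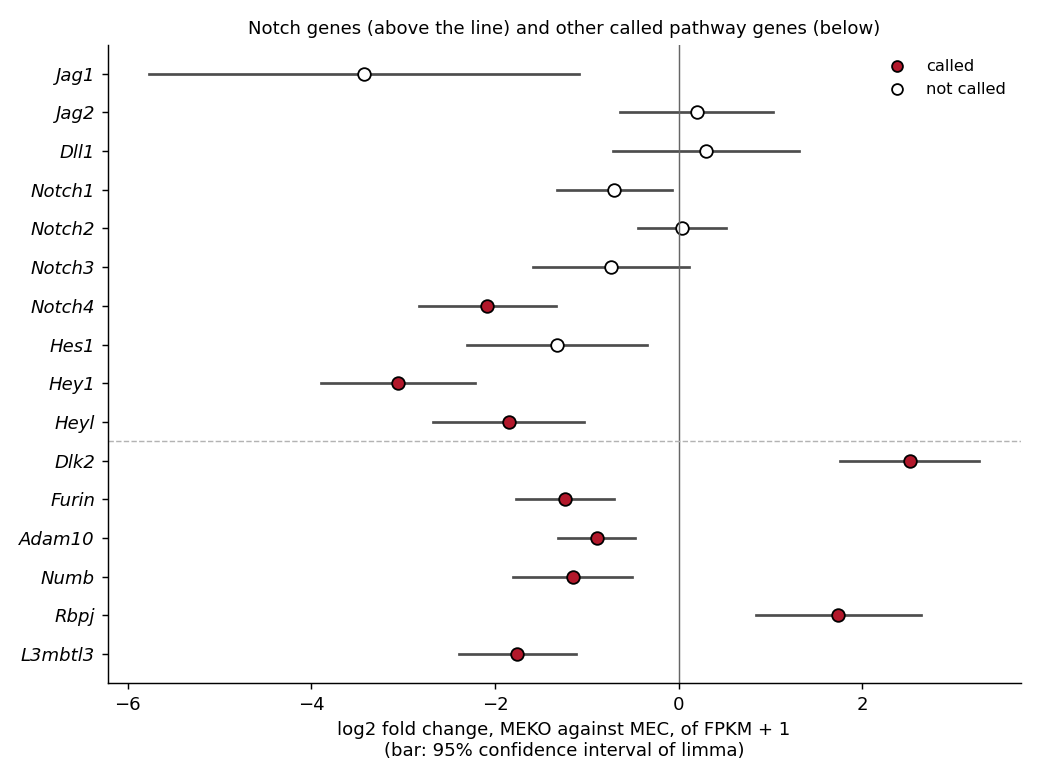
Log2 fold changes of MEKO against MEC on log2(FPKM + 1), with 95% confidence intervals of limma as bars. The 10 Notch genes are above the dashed line and the 6 other called pathway genes below it, and filled points passed both thresholds. *Jag1* has the widest interval, and with a pseudocount of 1 the lowest point, but with a pseudocount of 0.1 (-3.84) it lies above *Hey1*, *Heyl* and *Notch4*, and *Hey1*, *Notch4* and *Heyl* are the filled points among the 10.

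Markers of blood vessels moved with *Notch4*, *Hey1* and *Heyl* in part. The 8 endothelial markers, led by *Emcn*, *Pecam1* and *Cdh5*, summed to 20.7 and 24.2 FPKM in MEC 1 and MEC 2, to 2.51 FPKM in MEC 3, and to 0.200, 0.176 and 2.15 FPKM in lines 199, 233 and 336, and *Sox17* was at 0 in each line. The endothelial sum of MEC 3 was near that of line 336, where *Emcn* made up most of it (1.58 FPKM, against 0.453 FPKM in MEC 3). Each other endothelial marker was higher in MEC 3 than in line 336. Among them *Pecam1* was 0.784 against 0.249 FPKM and *Cdh5* 0.586 against 0.1775 FPKM. In MEC 3, *Notch4* was 4.65 FPKM and *Hey1* 11.5 FPKM, the second highest value of each gene, against 0.769 and 1.42 FPKM in line 336. *Heyl* by contrast had its lowest MEC value in MEC 3, 1.47 FPKM. Below the filter, and picked after their values were seen, the ligand gene *Dll4* (0.998, 0.717 and 0.298 FPKM in MEC, at most 0.111 FPKM in MEKO) and the target *Hey2* (1.15, 1.19 and 0.153 FPKM in MEC, at most 0.0823 FPKM in MEKO) also had their lowest MEC value in MEC 3. A lowest MEC value in MEC 3 was not particular to the vessel list. The luminal, basal, squamous and fibroblast sums and *Jag1*, *Jag2*, *Hes1* and *Nrarp* had it too, while *Notch1*, *Notch2* and *Dll1* were highest there. The 5 pericyte markers summed to 75.2 to 91.9 FPKM in MEC and 3.12 to 11.0 FPKM in MEKO, most of it from *Mcam*. In MEC 1, 2 and 3, *Mcam* was 71.1, 82.0 and 89.6 FPKM, highest in MEC 3. *Rgs5*, at 1.88, 2.43 and 0.729 FPKM, and the remaining pericyte markers were lowest in MEC 3. The part of vessel cells in the *Notch4*, *Hey1* and *Heyl* values was not tested.

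**Figure D4:**
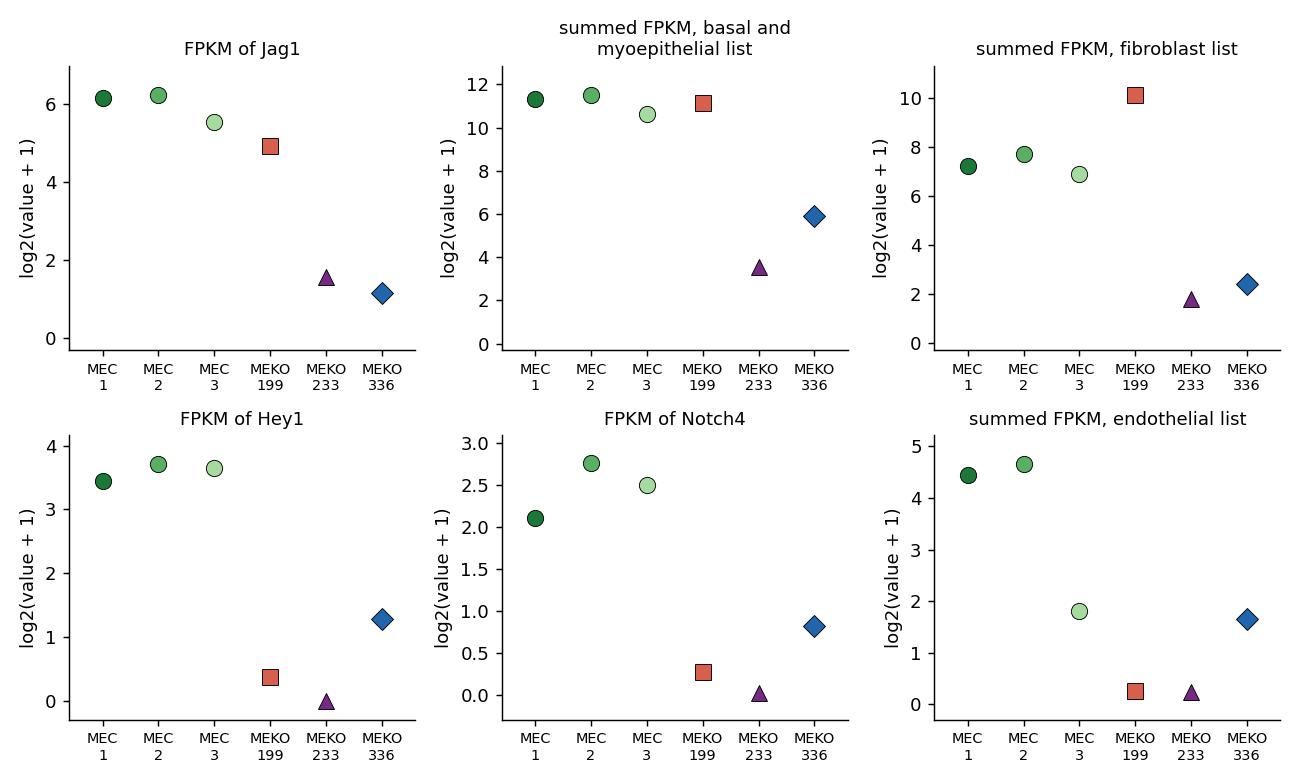
Values of *Jag1*, *Hey1* and *Notch4* and the summed FPKM of the basal and myoepithelial, fibroblast and endothelial marker lists in each library, all as log2(value + 1). *Jag1* in line 199 lies below each MEC library and above lines 233 and 336, the basal sum of line 199 lies within the MEC range, and MEC 3 has the lowest endothelial sum of the MEC libraries, 2.51 FPKM.

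The order of levels also differed between the groups. In MEC, *Jag1* (63.4 ± 15.8 FPKM) and *Hes1* (61.0 ± 7.77 FPKM) stood first, with ranges that overlapped, and *Notch1* followed apart from them at 17.5 ± 2.86 FPKM (SD, n = 3). *Hey1* at 11.2 ± 1.14 FPKM and *Notch2* at 10.7 ± 0.494 FPKM overlapped, *Notch3* lay below them, and *Dll1*, *Notch4*, *Jag2* and *Heyl* each overlapped the gene above. In MEKO, *Hes1* stood first, followed by *Notch2*, *Jag1*, *Notch1*, *Dll1*, *Jag2* and *Notch3*, and each of these overlapped its neighbor in the order. *Hey1*, *Notch4* and *Heyl* formed the bottom of the MEKO order, apart from *Notch3*.

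Line by line, each tumor line had *Notch4*, *Jag1*, *Hey1* and *Heyl* below MEC, and the lines differed in the other members. A member was counted for a line when its value lay outside the MEC range and more than 1 on the log2 scale, that is 2-fold in FPKM + 1, from the MEC mean, a rule without a test since each line is 1 library. In line 199, 5 members were lower, these 4 with *Notch3*, and *Dll1* was higher, where 12.3% of tested entries were lower and 7.89% higher. In line 233, 6 members were lower, the 4 with *Notch1* and *Hes1*, and none was higher, where 13.8% of entries were lower and 6.36% higher. In line 336, 5 members were lower, the 4 with *Hes1*, and none was higher, where 14.4% were lower and 6.79% higher. *Notch4*, *Hey1* and *Heyl* passed the filter only through MEC, so these counts describe the genes and not the pathway. *Jag1* in line 199 was just past the rule, at -1.04, and *Notch3* in that line was at -1.51, lower than in lines 233 and 336, at -0.58 and -0.14.

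Most of the rest of the pathway was not called. Of 60 further pathway genes, 47 passed the filter, 4 were called lower and 2 higher, or 12.8% beside 9.9% of all tested entries, and their median log2 fold change was -0.26. *Rbpj*, which encodes the DNA-binding partner of the Notch intracellular domain, was higher, with 19.6, 17.4 and 24.4 FPKM in MEC and 63.4, 44.0 and 122.1 FPKM in lines 199, 233 and 336 (log2 fold change 1.74, limma, adjusted p = 0.0364). All lines lay above all MEC libraries, with line 336 at the top, although the call was lost without any 1 MEC library, with adjusted p of 0.101 to 0.134, and with no filter on low values, with 0.0597. *Dlk2*, which encodes a Delta-like membrane protein, was nearly absent from MEC at 0.0217, 0.110 and 0 FPKM and was 7.04, 2.96 and 5.63 FPKM in the lines (log2 fold change 2.51, limma, adjusted p = 0.00741). *Dlk2* passed the filter only through MEKO, and it was called under each of 11 alternatives, with a log2 fold change of 5.19 at a pseudocount of 0.1.

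The 4 genes called lower were 8.51% of the 47 tested, beside 7.26% of all tested entries. That is too near to read their count as a result about the pathway. In the list used here they belong to receptor cleavage, endocytosis and the nuclear complex, and they are described singly. *Furin*, the protease of the first cleavage, was 53.6 to 64.7 FPKM in MEC and 28.3, 18.0 and 29.8 FPKM in lines 199, 233 and 336 (log2 fold change -1.24, limma, adjusted p = 0.0214). *Adam10*, the protease of the ligand-dependent cleavage, was 54.0 to 65.2 FPKM in MEC and 36.6, 26.2 and 30.5 FPKM in the lines (log2 fold change -0.89, limma, adjusted p = 0.0268). Both were lower in each line, by a modest amount, while the other 8 cleavage genes, among them the gamma-secretase subunits, were not called. *Numb*, an endocytic adaptor that restrains Notch, was 24.9 to 32.2 FPKM in MEC and 7.79, 13.2 and 15.7 FPKM in the lines (log2 fold change -1.16, limma, adjusted p = 0.0458), a call made under 5 of 12 alternatives, with adjusted p from 0.0274 to 0.157, and lost with a pseudocount of 0.1 (0.0501), no filter (0.0697) or no mean-variance trend (0.0520), and without any 1 MEC library or line 233. *L3mbtl3*, which encodes a corepressor that binds RBPJ, was 10.4 to 12.5 FPKM in MEC and 3.62, 3.02 and 1.51 FPKM in the lines (log2 fold change -1.76, limma, adjusted p = 0.0135). The calls of *Furin* and *L3mbtl3* were lost without any 1 MEC library, with adjusted p of 0.0680 to 0.103 and of 0.0624 to 0.0717, and that of *Adam10* was lost without any 1 MEC library and without line 233 or line 336, with adjusted p of 0.0578 to 0.114.

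Of the 5 glycosyltransferase genes 4 were tested and none was called, and the highest, *Poglut1*, which adds glucose to Notch repeats, was 13.3 to 19.5 FPKM in MEC and 20.0, 34.1 and 31.5 FPKM in the lines (limma, adjusted p = 0.0995). Of the 9 targets listed, 5 were tested, and *Hey1* and *Heyl* were those called. A further target, *Nrarp*, the product of which restrains Notch, was picked after its values were seen. It was 15.7, 14.4 and 6.98 FPKM in MEC and 22.6, 17.2 and 8.04 FPKM in lines 199, 233 and 336. Its groups overlapped, with a log2 difference of 0.31 (standard error 0.44, limma, adjusted p = 0.682).

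**Figure D5:**
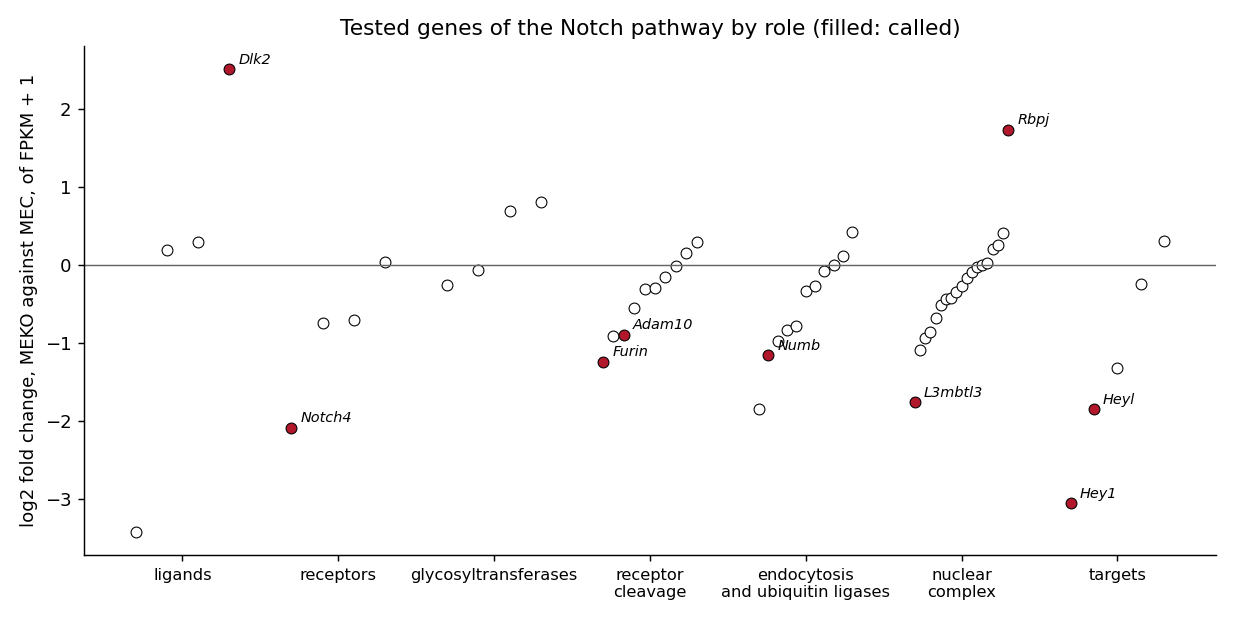
Log2 fold change of MEKO against MEC on log2(FPKM + 1) for the 57 tested genes of the pathway, grouped by role and ordered by value within each role. Filled, named points passed both thresholds, and they number 7 lower and 2 higher, with *Rbpj* and *Dlk2* as the higher ones. Together they are 15.8% of the 57, beside 9.9% of all tested entries.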

How the data were processed

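RNA of 6 libraries was analysed, 3 of MEC and 3 of MEKO lines, with groups taken from the sample titles. The authors trimmed the reads with Trimmomatic, aligned them to GRCm38 (mm10) with Bowtie2 and TopHat2 2.0.14, and quantified genes with Cufflinks 2.2.1 (versions from the submitters' processing notes). The deposited FPKM values were scaled for the length of the transcript and the size of the library. They hold no read counts, so depth is unknown. Small values put the depths at 0.92 to 1.30 times that of MEC 1, and precision is lowest for low genes. Where a symbol was on several entries the one with the highest mean was used.

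From these values log2(FPKM + 1) was computed, and entries with a mean of at least 1 FPKM were tested, MEKO against MEC, in R 4.3.3 with limma 3.58.1, the mean-variance trend switched on, and p-values were adjusted over 12461 entries (Benjamini-Hochberg). The pseudocount of 1 understates changes of low genes. The script was tested on simulated data. Shares were compared by exact permutation (scipy 1.17.1). The libraries are separate preparations or lines, 1 each, and no batch is given in the labels. Positions come from GENCODE M21. The members, the pathway and marker lists and the tests were chosen with earlier results of these data known. Named besides the members are the deleted genes, each called pathway gene, the highest gene of a role with no call, and up to 3 markers a list with the highest mean. Other names were chosen after their values were seen. Alternatives were a pseudocount of 0.1, no filter, a filter at 5 FPKM, quantile normalization, upper-quartile scaling, no trend, and each library left out. Of the leukocyte markers, 5 of 6 were in the table, and that list summed to 5.15 to 8.86 FPKM in MEC and 0.931 to 24.9 FPKM in MEKO. The 3 adipocyte markers summed to 1.28 to 11.7 and 0.0898 to 1.17 FPKM.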

Additional observations from a re-analysis of the deposited data

How the results depend on the processing

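The count of called entries was 1234, of which 73.3% were lower in MEKO. It was 738 with a filter at a mean of 5 FPKM and ran from 259 to 1966 when 1 library was left out, lowest without MEC 1 (301 without MEC 2, 477 without MEC 3) and highest without line 199. Quantile normalization moved the lower share to 62.1% and the median log2 fold change of all entries from 0.01 to 0.10. Of the 10 Notch genes, 3 were called, against 1 of the 7 tested with the filter at 5 FPKM and 1 to 5 when 1 library was left out. Of the 57 tested pathway genes, 9 were called, or 15.8% beside 9.9% of all tested entries. It was 2 without MEC 1, 2 without MEC 2, 3 without MEC 3 (of 56) and 15 without line 199. The count over all entries in these settings was 259, 301, 477 and 1966. Among the 57, *Notch4*, *Hey1* and *Heyl* passed the filter only through MEC and *Dlk2* only through MEKO, so the counts describe genes and not the pathway. The log2 difference turned sign for *Notch2* with upper-quartile scaling (-0.0095). When 1 library was left out it ran from -0.14 (without line 199) to 0.17 for *Notch2*, from -0.059 (without line 233) to 0.55 for *Jag2* and from -0.15 (without line 199) to 0.64 for *Dll1*, and none was called. *Notch4*, *Jag2*, *Heyl* and *Dlk2* gave no value with the filter at 5 FPKM. *Hey1* and *Dlk2* were called under every alternative that could be computed. The cause of these moves was not tested. No paired analysis was possible because the groups share no replicate number. Depth limits the genes under 1 FPKM in a group, among them *Notch4*, *Hey1* and *Heyl* in MEKO, where a value rests on few fragments.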
